A study of Mus musculus with 8 samples.

Results

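The genes described here are 48 genes of mitosis: the mitotic cyclins with Cdk1 and its activating phosphatases, the spindle checkpoint, the kinetochore and centromere, the mitotic kinases, the spindle motors, the anaphase machinery and the proteins that condense chromosomes. They were chosen by symbol and role, and all 48 were found among the 42391 gene entries of the count matrix and passed the filter on low counts in every comparison. Between 63 reads (Cenpm) and 9978 reads (Top2a) were counted per gene and sample, of 20898611 to 27223414 reads per sample. Of the 48 genes, 5 (Ccna2, Cdc25c, Kif4, Ncapg and Ube2c) share at least 10% of their exon bases with a gene on the opposite strand, and whether reads were counted by strand is not given in the sources used here.

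Cells were transfected with a non-targeting siRNA (control) or a Septin9 siRNA (Septin9-deficient) and their polyA RNA was sequenced, with 2 replicates per condition and cell type and 8 samples in all. C2C12 cells, an immortalised mouse myoblast line, were collected 60 h after transfection, of which the last 12 h were in differentiation medium. Primary myoblasts (pMb), grown from hindlimb muscle of 5-week-old mice, were collected 48 h after transfection in proliferation medium. All samples were wild type apart from the siRNA, C2C12 cells received 50 nM siRNA that stood at 100 nM for the first 5 h, and the replicates came from 2 independent experiments. Cell type, medium, stage and time after transfection therefore differed together between the cell types. The paper lists a single Septin9 siRNA, so effects of lower Septin9 and other effects of that siRNA cannot be told apart. Septin9, a septin that assembles into filaments beneath the membrane and at the cleavage furrow, checks the labels. Its level in CPM (counts per 1000000 reads) was 409 and 435 in control C2C12 cells and 147 and 185 after Septin9 siRNA (log2 fold change −1.36, adjusted p = 5.11e-09). In pMb it was 376 and 473 in the controls and 208 and 159 after Septin9 siRNA (log2 fold change −1.21, adjusted p = 0.000134).

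As background, cyclin B and Cdk1 drive cells into mitosis, condensin and topoisomerase II compact the chromosomes, and kinetochores built on centromeres attach them to the spindle. The checkpoint holds the anaphase-promoting complex until every kinetochore is attached, after which separase splits the sisters. The transcripts of many of these genes, though not of all, accumulate in G2 and M phase, so in muscle cultures they mark cycling myoblasts, and they decline when myoblasts leave the cell cycle to differentiate. In bulk RNA, fewer dividing cells and less RNA per dividing cell cannot be told apart.

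Genes of this class often share 2 promoter elements. The CHR (cell cycle genes homology region) is bound by MuvB complexes, which repress these genes in resting cells and activate them in G2 and M phase, and the CCAAT box is bound by the factor NF-Y. Promoter windows of 300 bases, from 250 before to 50 after the annotated start (RefSeq, GRCm38.p6), were held for 41 of the 48 genes as 44 windows, some of which overlap. Both strands were searched for TTTGAA or TTCGAA as the CHR and for CCAAT. The second CHR spelling reads the same on both strands and was counted once, whereas CCAAT boxes that overlap on opposite strands were counted separately. Of the 44 windows, 31 (70.5%) held a CHR, against 19.2% of all 32851 windows, and 26 (59.1%) held one within 50 bases of the start, against 5.31%. At least 1 CCAAT box stood in 79.5% of the windows, against 37.4% of all, and at least 2 in 52.3%, against 11.7%. A CHR together with at least 2 CCAAT boxes stood in 45.5% of the windows, against 2.31% of all windows.

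The windows below are printed 5′ to 3′ on the strand of the gene, with every CHR and CCAAT match on either strand in capitals. The first 4 hold both elements and belong to a cyclin, the anaphase activator Cdc20, topoisomerase IIα and the kinesin Kif22, whose transcript changed most after Septin9 siRNA. Ccnb1 holds CCAAT boxes and no CHR match of these letters.
Ccnb2, chr9:70421505-70421804 (minus strand): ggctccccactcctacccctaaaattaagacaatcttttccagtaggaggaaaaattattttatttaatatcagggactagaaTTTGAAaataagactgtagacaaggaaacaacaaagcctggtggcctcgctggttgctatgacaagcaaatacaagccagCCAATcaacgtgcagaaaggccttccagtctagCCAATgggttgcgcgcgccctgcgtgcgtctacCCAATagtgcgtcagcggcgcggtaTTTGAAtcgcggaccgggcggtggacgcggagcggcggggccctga
Cdc20, chr4:118437294-118437593 (minus strand): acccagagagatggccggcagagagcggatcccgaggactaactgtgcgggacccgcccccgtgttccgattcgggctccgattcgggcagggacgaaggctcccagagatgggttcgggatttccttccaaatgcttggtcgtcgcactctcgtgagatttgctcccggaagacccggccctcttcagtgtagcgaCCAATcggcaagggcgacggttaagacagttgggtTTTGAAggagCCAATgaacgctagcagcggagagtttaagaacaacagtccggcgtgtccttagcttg
Top2a, chr11:99024140-99024439 (minus strand): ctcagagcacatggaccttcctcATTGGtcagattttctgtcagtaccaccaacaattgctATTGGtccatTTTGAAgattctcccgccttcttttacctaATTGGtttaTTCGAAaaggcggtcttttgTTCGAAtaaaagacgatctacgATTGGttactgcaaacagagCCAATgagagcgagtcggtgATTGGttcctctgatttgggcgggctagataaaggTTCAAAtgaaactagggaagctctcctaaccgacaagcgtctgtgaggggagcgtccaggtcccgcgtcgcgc
Kif22, chr7:127042371-127042670 (minus strand): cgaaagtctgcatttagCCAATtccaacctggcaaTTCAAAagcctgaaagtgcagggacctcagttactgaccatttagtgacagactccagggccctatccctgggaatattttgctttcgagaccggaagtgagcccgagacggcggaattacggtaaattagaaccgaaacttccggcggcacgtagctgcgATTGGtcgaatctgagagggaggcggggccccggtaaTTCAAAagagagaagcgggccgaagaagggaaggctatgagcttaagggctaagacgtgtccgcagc
Ccnb1, chr13:100786437-100786736 (minus strand): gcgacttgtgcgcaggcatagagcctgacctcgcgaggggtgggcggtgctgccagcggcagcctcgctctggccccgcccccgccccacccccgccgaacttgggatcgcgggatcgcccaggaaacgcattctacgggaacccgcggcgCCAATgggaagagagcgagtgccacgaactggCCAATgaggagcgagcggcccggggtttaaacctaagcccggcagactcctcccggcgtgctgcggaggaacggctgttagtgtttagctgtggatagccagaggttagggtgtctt
These matches describe the letters in the windows and were not tested for binding in these cells.

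The mitotic genes were lower in Septin9-deficient than in control cells of both cell types, by a similar and modest amount. In C2C12 cells 48 of 48 fitted log2 fold changes were below 0 with a median of −0.28, while the median over all 15814 genes tested was −0.001. In pMb 47 of 48 were below 0 with a median of −0.32, beside a median of 0.01 over 17117 genes. The levels added up over the 48 genes were 5280 CPM (control) and 4300 CPM (Septin9-deficient) in C2C12 replicate 1, and 2870 and 2380 CPM in replicate 2. In pMb the sums were 2880 and 2290 CPM in replicate 1 and 3550 and 2890 CPM in replicate 2. Each Septin9-deficient sample thus lay below the control of its own replicate, while in C2C12 cells the Septin9-deficient sample of replicate 1 lay above the control of replicate 2.

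Of the 48 genes, 31 fell in Septin9-deficient C2C12 cells at an adjusted p under 0.05 and 0 rose, where 4.12% of all genes tested fell and 2.64% rose. In pMb 7 fell (Kif22, Ccnb1, Espl1, Ncapd2, Incenp, Kif2c and Knl1) and 0 rose, where 1.04% of all genes fell and 3.95% rose. All 7 had also fallen in C2C12 cells. No member had a log2 fold change above 0 at an unadjusted p under 0.05 in either cell type, and DESeq2 with the block called 0 higher in both. At the fold threshold of the study, a change of 1.5-fold or more beside the adjusted p, Kif22 alone passed in C2C12 cells and in pMb, where 0.74% and 0.298% of all genes were lower by that rule. The standard error of a member's fold change had a median of 0.07 in C2C12 cells and 0.113 in pMb.

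By replicate pair, 44 of the 48 genes were lower in both C2C12 pairs, as were 31.4% of all genes, and 45 were lower in both pMb pairs, as were 29.2% of all genes. The exceptions lay close to 0 in 1 pair each (Bub3 and Cenph in the first and Cenpa and Cenpn in the second C2C12 pair, Cenpk in the first and Cenpn in the second pMb pair), apart from Pttg1, which was higher in both pMb pairs. Across replicates the groups overlapped in C2C12 cells, where 0 of 48 genes had both Septin9-deficient samples below both controls, a pattern held by 12.1% of all genes. In pMb 22 of 48 genes had it, beside 15.3% of all genes.

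The count of calls differed between models. Without the replicate block 0 members were called in either cell type, and DESeq2 with the block called 6 in C2C12 cells (Ccna2, Ccnb1, Cenpf, Kif22, Mki67 and Top2a) and 1 in pMb (Kif22), as did scaling by RLE or by library size in pMb. The calls over all genes moved as well. Without the block 0 genes were called in either cell type. In C2C12 cells edgeR with the block called 651 genes lower, and DESeq2 199. In pMb it called 178 lower, against 41 by DESeq2, 48 with RLE and 59 with library size. With a pair left out, 1 sample stood in each group, so only the size of the change is given. Without replicate 1 or 2, the 48 genes had a median of −0.28 or −0.275 in C2C12 cells. In pMb it was −0.307 or −0.312. The spread was pooled from the other cell type each time.

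**Figure D1:**
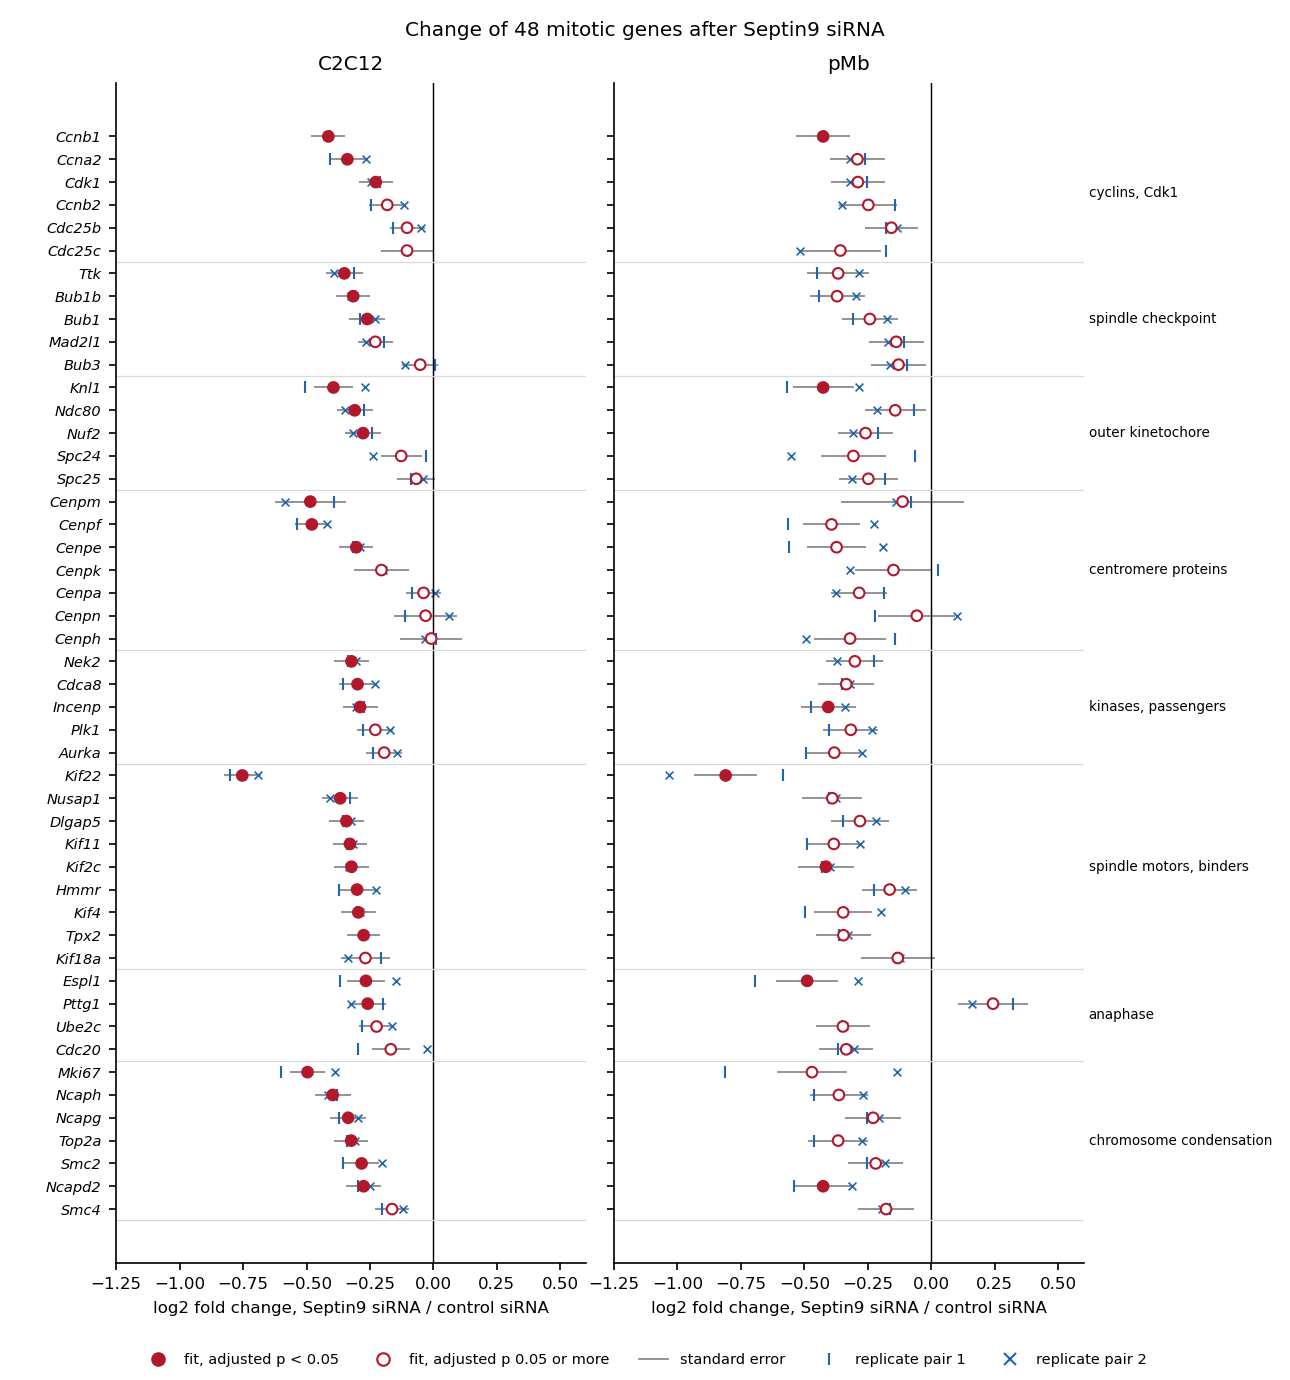
Log2 fold change of each gene between Septin9-deficient and control samples (horizontal axis) in C2C12 cells (left) and pMb (right), by role. Circles and grey bars give the fit and its standard error, filled circles have an adjusted p under 0.05, and blue marks give the ratio within each replicate pair. Circles lie left of 0 for all genes but Pttg1 in pMb, and Kif22 lies farthest left in both panels.

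Mitosis begins with the cyclins. Ccna2, the cyclin of S phase and early mitosis, was at 250 and 122 CPM in control C2C12 cells and 191 and 100 CPM after Septin9 siRNA, replicates 1 and 2 in that order here and below. In pMb the values were 103 and 130 CPM in the controls and 87.3 and 102 CPM after Septin9 siRNA. Each Septin9-deficient sample lay below the control of its pair, and in pMb below both controls. Ccna2 fell in C2C12 cells (log2 fold change −0.34 ± 0.068 SE, adjusted p = 0.00398), whereas in pMb the value of −0.29 did not pass (adjusted p = 0.149). Ccnb1 encodes cyclin B1, the partner of Cdk1 at mitotic entry. It was at 159 and 82.9 CPM in control C2C12 cells and 122 and 61.4 CPM after Septin9 siRNA, and at 95.2 and 127 CPM against 72.1 and 92.4 CPM in pMb. Ccnb1 was lower in all 4 pairs by nearly the same ratio, and it fell in C2C12 cells (−0.41 ± 0.067, adjusted p = 0.000669) and in pMb (−0.43 ± 0.107, adjusted p = 0.0258). A listed Ccnb1 pseudogene held 1.9% of its read count. Ccnb2, the second cyclin B, was at 101 and 72.2 CPM in control C2C12 cells and 86.8 and 66.0 CPM after Septin9 siRNA, and at 35.5 and 47.9 CPM against 32.7 and 36.9 CPM in pMb. It was lower in every pair, but neither fold change passed (−0.18, adjusted p = 0.147 and −0.25, adjusted p = 0.278). Of the 6 genes of this group, which also holds Cdk1, Cdc25b and Cdc25c, 3 fell in C2C12 cells and 1 in pMb, and the medians were −0.21 and −0.29.

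**Figure D2:**
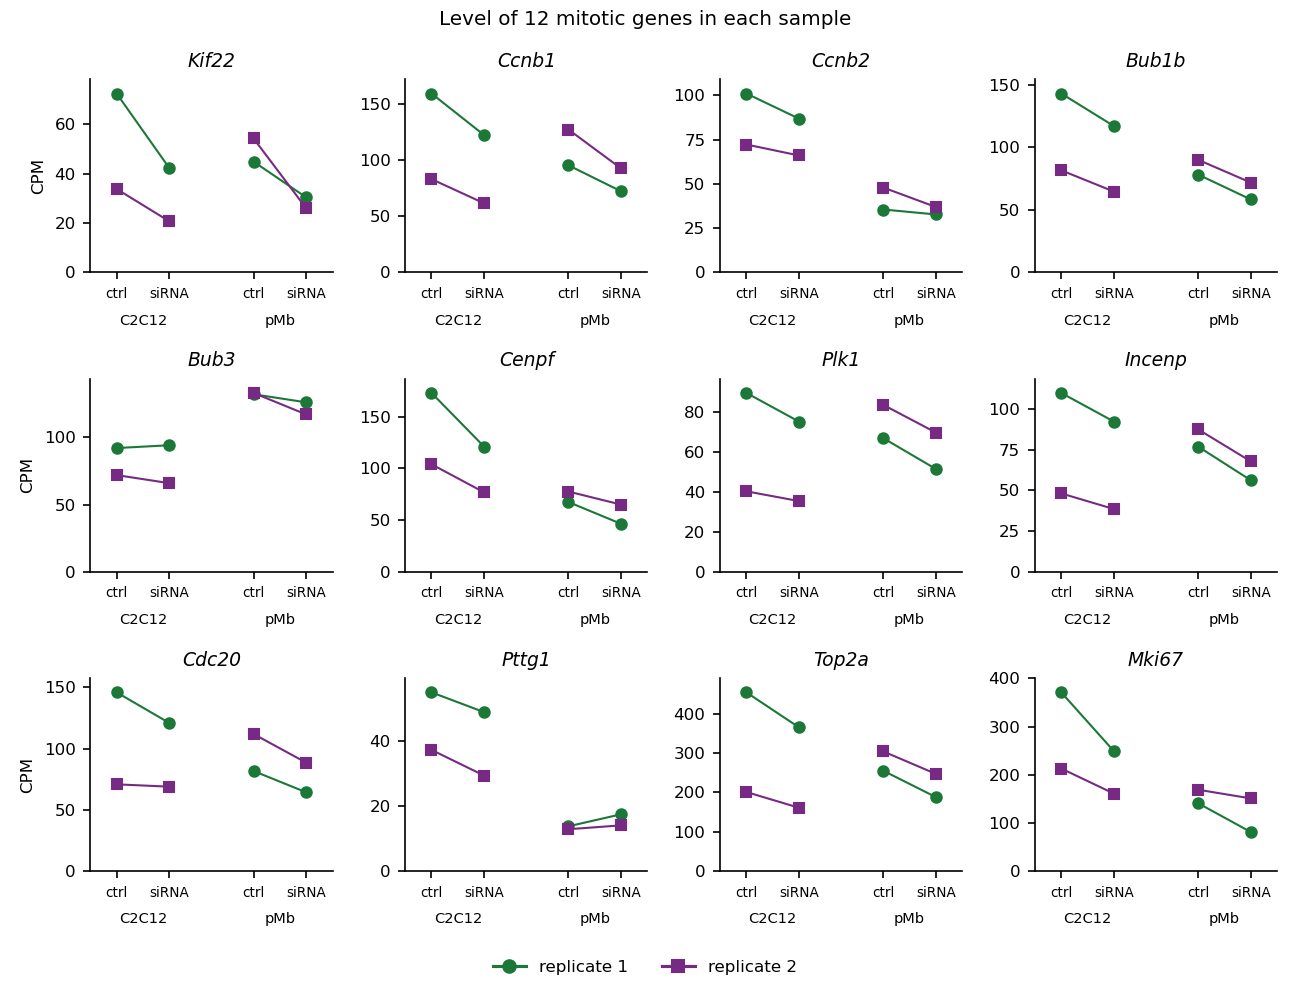
Level of 12 of the genes in CPM (vertical axis, from 0) in control (ctrl) and Septin9-deficient (siRNA) samples of both cell types. Points are single samples, and lines join the samples of a replicate pair. Lines run downward for most genes, replicate 1 lies above replicate 2 in C2C12 cells, and Pttg1 alone runs upward in both pMb pairs.

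The spindle checkpoint senses unattached kinetochores. Bub1b, which encodes the checkpoint protein BubR1, was at 143 and 81.6 CPM in control C2C12 cells and 117 and 64.6 CPM after Septin9 siRNA, and at 78.2 and 90 CPM against 58.3 and 71.8 CPM in pMb. Both pMb samples with Septin9 siRNA lay below both controls. Bub1b fell in C2C12 cells (−0.32 ± 0.067, adjusted p = 0.00637), and in pMb the adjusted p was 0.0552 at a fold change of −0.37. Bub3, the subunit that brings Bub1 and BubR1 to kinetochores, was at 92.0 and 71.9 CPM in control C2C12 cells and 94.1 and 65.9 CPM after Septin9 siRNA. In pMb it was at 132 and 133 CPM in the controls and 126 and 117 CPM after Septin9 siRNA. The change of Bub3 was the smallest of the checkpoint genes in both cell types (−0.05, adjusted p = 0.769 and −0.13, adjusted p = 0.624). In pMb it was close to that of Mad2l1 (−0.14, adjusted p = 0.586). Of 5 checkpoint genes, 3 fell in C2C12 cells by edgeR (Ttk, Bub1b and Bub1) and 0 in pMb, with medians of −0.26 and −0.24. DESeq2 with the replicate block called none of them in either cell type.

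The outer kinetochore binds microtubules through the Ndc80 complex and Knl1. Knl1, the scaffold on which checkpoint proteins gather, fell in C2C12 cells (−0.39 ± 0.076, adjusted p = 0.00284) and in pMb (−0.43 ± 0.12, adjusted p = 0.0465). The highest levels per kb of exon in this group were those of Spc24 and Spc25, the pair that anchors the Ndc80 complex. Spc24 was at 46.2 and 25.6 CPM in control C2C12 cells and 46.0 and 21.5 CPM after Septin9 siRNA, and at 33.9 and 35.9 CPM against 32.9 and 24.0 CPM in pMb. Spc25 was at 51.2 and 24.4 CPM in control C2C12 cells and 49.0 and 23.5 CPM after Septin9 siRNA, and at 27.3 and 33.5 CPM against 24.4 and 26.5 CPM in pMb. Both were lower in all 4 pairs, most of all Spc24 in the second pMb pair (log2 ratio −0.55), and neither passed the test (adjusted p between 0.218 and 0.712). In C2C12 cells their partners Ndc80 (−0.31) and Nuf2 (−0.28) fell, with adjusted p of 0.0105 and 0.0197. In pMb, Ndc80 (−0.14) and Nuf2 (−0.26) did not pass.

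The changes of 7 centromere proteins ran from −0.49 (Cenpm) to −0.01 (Cenph) in C2C12 cells. Cenpf, a large protein of the fibrous corona, was at 173 and 104 CPM in control C2C12 cells and 121 and 76.8 CPM after Septin9 siRNA, and at 67.5 and 77.6 CPM against 46.4 and 65.0 CPM in pMb. It was lower in every pair and fell in C2C12 cells (−0.48 ± 0.068, adjusted p = 0.000166), while −0.39 in pMb had an adjusted p of 0.0551. Cenpe, the plus-end-directed kinetochore motor, was at 145 and 91.7 CPM in control C2C12 cells and 118 and 74.3 CPM after Septin9 siRNA, and at 70.1 and 88.1 CPM against 48.2 and 75.8 CPM in pMb. It fell in C2C12 cells (−0.30 ± 0.067, adjusted p = 0.00798), and in pMb the value was −0.37 (adjusted p = 0.0744). Cenpa, the histone H3 variant that marks centromeres, was nearly the same in C2C12 cells, at 76.1 and 49.0 CPM in the controls and 73.1 and 48.7 CPM after Septin9 siRNA. In pMb it was at 41.0 and 65.0 CPM in the controls and 36.6 and 49.1 CPM after Septin9 siRNA (−0.28, adjusted p = 0.181). Cenph, of the inner kinetochore, was at 16.8 and 7.25 CPM in control C2C12 cells and 17.2 and 7.02 CPM after Septin9 siRNA, and at 14.9 and 17.6 CPM against 13.7 and 12.2 CPM in pMb. Cenph was therefore lower in both pMb pairs and level in C2C12 cells, though neither change passed (adjusted p = 0.984 and 0.261). Cenpm, another inner kinetochore protein, was at 12.7 and 8.31 CPM in control C2C12 cells and 9.84 and 5.47 CPM after Septin9 siRNA, where it fell (−0.49 ± 0.141, adjusted p = 0.0435). In pMb it was at 3.22 and 3.38 CPM in the controls and 3.09 and 3.01 CPM after Septin9 siRNA (−0.11, adjusted p = 0.879). In all, 3 centromere genes fell in C2C12 cells by edgeR (Cenpf, Cenpe and Cenpm) and 0 in pMb. DESeq2 with the replicate block called Cenpf alone in C2C12 cells and none of them in pMb.

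The mitotic kinases and the chromosomal passenger proteins order these steps. Plk1, polo-like kinase, was at 89.8 and 40.4 CPM in control C2C12 cells and 75.4 and 35.5 CPM after Septin9 siRNA, and at 67.1 and 83.8 CPM against 51.6 and 69.9 CPM in pMb. Aurka, the kinase of the spindle poles, was at 69.1 and 28.5 CPM in control C2C12 cells and 59.7 and 25.6 CPM after Septin9 siRNA, and at 49.3 and 59.7 CPM against 35.5 and 48.5 CPM in pMb. Both kinases were lower in all 4 pairs, but their adjusted p lay between 0.0575 and 0.127, at fold changes between −0.38 and −0.19. Incenp, the scaffold of the passenger complex, was at 110 and 48.2 CPM in control C2C12 cells and 92.4 and 38.6 CPM after Septin9 siRNA, and at 77.0 and 87.6 CPM against 56.3 and 67.9 CPM in pMb. Incenp fell in C2C12 cells (−0.29 ± 0.069, adjusted p = 0.0149) and in pMb (−0.41 ± 0.108, adjusted p = 0.0342). Of this group of 5 genes, Nek2, Cdca8 and Incenp fell in C2C12 cells and Incenp in pMb. Reads of Nek2 are uncertain, because a second entry of the same gene holds 99.0% as many reads.

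The spindle motors and microtubule binders were the group with the largest share of calls in C2C12 cells, 8 of 9, with a median of −0.32, and 2 of 9 fell in pMb, with a median of −0.35. Kif22, a chromokinesin that pushes chromosome arms away from the poles, lies at chr7:127027729-127042467 (GRCm38.p6). It was at 72.5 and 33.8 CPM in control C2C12 cells and 42.3 and 20.7 CPM after Septin9 siRNA, and at 44.9 and 54.3 CPM against 30.4 and 26 CPM in pMb. In pMb the groups did not overlap, and in C2C12 cells the Septin9-deficient sample of replicate 1 lay above the control of replicate 2. Kif22 fell in C2C12 cells (−0.75 ± 0.073, adjusted p = 2.79e-06) and in pMb (−0.81 ± 0.124, adjusted p = 0.000852). Its log2 ratio was −0.80 and −0.69 in the C2C12 pairs but −0.59 and −1.03 in the pMb pairs, which differed in size. Tpx2, which activates Aurora A on the spindle, was at 176 and 96.8 CPM in control C2C12 cells and 148 and 79.3 CPM after Septin9 siRNA, and at 106 and 141 CPM against 83.5 and 110 CPM in pMb. It fell in C2C12 cells (−0.28 ± 0.066, adjusted p = 0.015), and in pMb the adjusted p was 0.0766 at −0.35. Hmmr, a microtubule-associated protein of spindle poles, was at 117 and 65.7 CPM in control C2C12 cells and 92.1 and 55.7 CPM after Septin9 siRNA, and at 49.5 and 68.7 CPM against 42.9 and 62.7 CPM in pMb. Hmmr fell in C2C12 cells (−0.30 ± 0.07, adjusted p = 0.0124) and was among the less changed members in pMb (−0.16, adjusted p = 0.497). Nusap1, which stabilises microtubules near chromatin, was at 94.0 and 53.4 CPM in control C2C12 cells and 76.1 and 39.9 CPM after Septin9 siRNA, and at 25.9 and 30.2 CPM against 19.8 and 22.8 CPM in pMb. The 4 pair ratios of Nusap1 were close to each other, from −0.41 to −0.33, and it passed in C2C12 cells alone (adjusted p = 0.00266, and 0.0714 in pMb). Kif2c, the microtubule-depolymerising kinesin of centromeres, was the second motor to fall in both cell types (−0.32 and −0.42). Reads of Kif11 are uncertain, since a second entry of the gene holds 100.0% of its read count.

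Anaphase needs Cdc20, which activates the anaphase-promoting complex, and Ube2c, its ubiquitin-conjugating enzyme. Cdc20 had the highest control level per kb of exon of all 48 genes, 58.1 CPM per kb in C2C12 cells and 51.8 CPM per kb in pMb. It was at 146 and 70.9 CPM in control C2C12 cells and 121 and 69.0 CPM after Septin9 siRNA, so that replicate 2 was nearly level (log2 ratio −0.03). In pMb Cdc20 was at 81.8 and 112 CPM in the controls and 64.4 and 88.6 CPM after Septin9 siRNA (−0.34, adjusted p = 0.0846). Ube2c was at 103 and 49.9 CPM in control C2C12 cells and 86.0 and 44.2 CPM after Septin9 siRNA, and at 65.4 and 90.7 CPM against 52.1 and 70.0 CPM in pMb. Its changes of −0.22 and −0.35 had adjusted p of 0.0633 and 0.0706, and 22.8% of its exon bases are shared with Tnnc2, a muscle troponin gene on the opposite strand. Espl1, which encodes separase, was at 76.7 and 35.8 CPM in control C2C12 cells and 60.5 and 32.0 CPM after Septin9 siRNA, and at 37.5 and 42.6 CPM against 23.5 and 34.2 CPM in pMb. Espl1 fell in C2C12 cells (−0.27 ± 0.075, adjusted p = 0.0371) and in pMb (−0.49 ± 0.123, adjusted p = 0.0264).

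Pttg1, which encodes securin, the inhibitor of separase, was the exception. Its level in C2C12 cells was 55.0 and 37.3 CPM in the controls and 48.9 and 29.4 CPM after Septin9 siRNA, and it fell there (−0.26 ± 0.073, adjusted p = 0.0363). In pMb it was at 13.8 and 12.9 CPM in the controls and 17.5 and 14.1 CPM after Septin9 siRNA, so that both Septin9-deficient samples lay above both controls. The pMb change of 0.24 ± 0.138 did not pass the test (adjusted p = 0.414).

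Of 7 genes of chromosome condensation, 6 fell in C2C12 cells, with a median of −0.32, and 1 fell in pMb, with a median of −0.36. Top2a, topoisomerase IIα, was at 454 and 201 CPM in control C2C12 cells and 365 and 161 CPM after Septin9 siRNA, and at 255 and 304 CPM against 188 and 247 CPM in pMb. It was lower in every pair and fell in C2C12 cells (−0.32 ± 0.067, adjusted p = 0.00508), while −0.37 in pMb had an adjusted p of 0.0908. Mki67, which encodes the proliferation marker Ki-67 that coats mitotic chromosomes, was at 371 and 213 CPM in control C2C12 cells and 249 and 161 CPM after Septin9 siRNA. In pMb it was at 141 and 169 CPM in the controls and 81.3 and 151 CPM after Septin9 siRNA, and the pairs differed in size (log2 ratios −0.81 and −0.13). Mki67 had the second largest fold change of the 48 genes in C2C12 cells (−0.50 ± 0.07, adjusted p = 0.000167) and, behind Kif22 and Espl1, the third largest in pMb (−0.47 ± 0.137, adjusted p = 0.0564). The condensin subunit Smc4, an ATPase, was at 312 and 196 CPM in control C2C12 cells and 276 and 179 CPM after Septin9 siRNA, and at 134 and 189 CPM against 122 and 162 CPM in pMb. Smc4 was the least changed condensation gene in both (−0.16, adjusted p = 0.176 and −0.18, adjusted p = 0.463). Ncapd2, a condensin I regulatory subunit, was at 129 and 73.0 CPM in control C2C12 cells and 106 and 60.9 CPM after Septin9 siRNA, and at 141 and 159 CPM against 98.3 and 126 CPM in pMb. It fell in both cell types (−0.28 ± 0.068, adjusted p = 0.0174 and −0.43 ± 0.113, adjusted p = 0.0341). Ncaph, which closes the condensin I ring, was at 70.9 and 32.2 CPM in control C2C12 cells and 55.5 and 23.9 CPM after Septin9 siRNA, and at 40 and 44.0 CPM against 29.5 and 35.8 CPM in pMb. It fell in C2C12 cells (−0.40 ± 0.071, adjusted p = 0.00155), and both pMb values lay below both controls (−0.36, adjusted p = 0.0783).

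The 2 experiments stood farther apart than the siRNA conditions in C2C12 cells. There all 48 genes were lower in replicate 2 than in replicate 1 at an adjusted p under 0.05, with a median log2 fold change of −0.91 and a range from −1.28 (Aurka) to −0.32 (Cdc25b), where 18.3% of all genes were lower. In pMb the order was turned, with 45 of 48 genes higher in replicate 2, 27 of them at an adjusted p under 0.05 (12.5% of all genes were higher), and a median of 0.33. Bub3, Spc24 and Pttg1 were the exceptions. Replicate numbers name the experiments within each cell type, and nothing states that they were shared between the cell types. Markers of muscle differentiation ran opposite to the mitotic genes between replicates. The sum of 12 markers was 126 and 174 CPM in C2C12 replicate 1 (control and Septin9-deficient) and 266 and 341 CPM in replicate 2, and in pMb it was 17100 and 22900 CPM in replicate 1 and 5050 and 11800 CPM in replicate 2. The part that this order of the experiments has in the change of the mitotic genes was not tested.

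**Figure D3:**
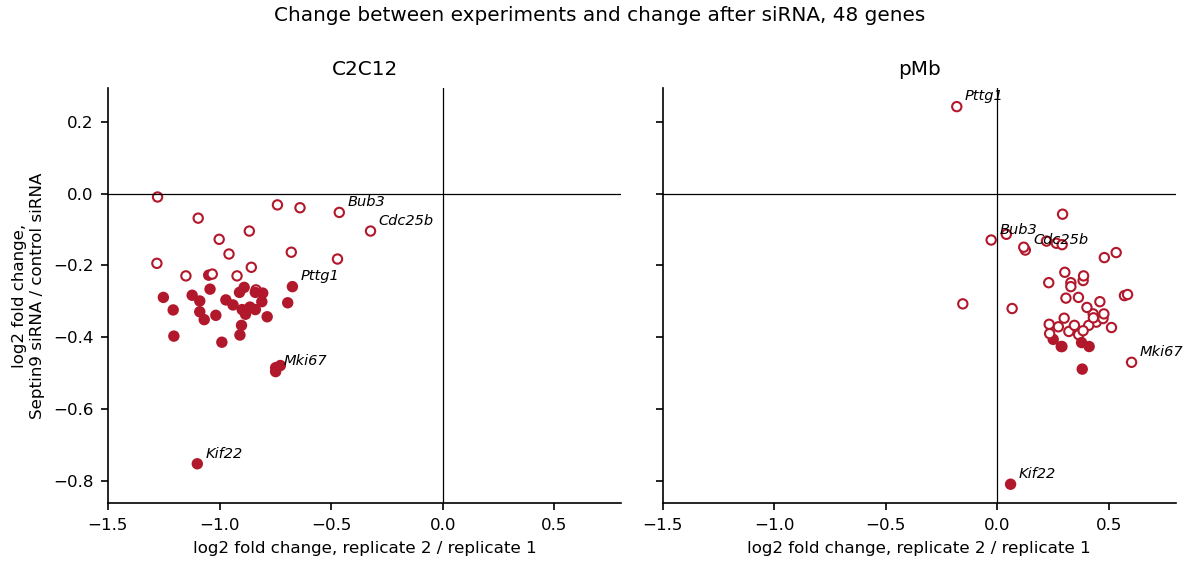
Log2 fold change between replicate 2 and replicate 1 (horizontal axis) and between Septin9-deficient and control samples (vertical axis) for the 48 genes, with filled points at an adjusted p under 0.05 for the siRNA. In C2C12 cells all points lie left of 0 on the replicate axis, and in pMb most lie right of it, whereas all but Pttg1 in pMb lie below 0 on the siRNA axis.

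Most of the differentiation markers also moved with the siRNA, in the other direction from the mitotic genes. Of the 12 markers, which include the transcription factor Myog, the fusion proteins Mymk and Mymx and sarcomere genes, 7 rose in C2C12 cells and 11 in pMb, with medians of 0.73 and 0.90. Of all genes, 2.64% rose in C2C12 cells and 3.95% in pMb. The actin gene Acta1 was the only marker below 0, in C2C12 cells (−0.40, adjusted p = 0.0841) and in pMb (−0.06, adjusted p = 0.914). Myog was at 5.19 and 37.5 CPM in control C2C12 cells and 15.9 and 63.7 CPM after Septin9 siRNA, and at 1020 and 401 CPM against 1550 and 908 CPM in pMb. The pMb samples, labelled as proliferating, thus held far more of these transcripts than the C2C12 cells in differentiation medium. Of 6 myoblast markers, 3 rose in C2C12 cells, and in pMb 1 rose and 2 fell. Fibroblast markers summed to 4190 to 4750 CPM in C2C12 cells, mostly Col1a2 and Col3a1, and in pMb to 396 and 367 CPM in replicate 1 and 1300 and 1630 CPM in replicate 2. Endothelial, leukocyte and adipocyte markers summed to at most 7.75, 4.38 and 1.1 CPM in any sample. The part of a shift in cell state or of other cells in the result was not tested.

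Whether the change after Septin9 siRNA differed between the cell types was tested by the interaction of siRNA and cell type over all 8 samples. By edgeR 0 of the 48 genes and 0.0% of 17918 genes were called, with 1 member and 1469 genes at an unadjusted p under 0.05, and DESeq2 called 0 members and 21 genes. The differences, taken as pMb minus C2C12, had a median of −0.05 and ran from −0.32 (Cenph) to 0.50 (Pttg1). The smallest p was that of Pttg1 (difference 0.50 ± 0.142, unadjusted p = 0.00594, adjusted p = 0.402), followed by Cenpa (−0.26 ± 0.125, unadjusted p = 0.069) and Cenph (−0.32 ± 0.188, unadjusted p = 0.117). Kif22 differed by −0.07 (unadjusted p = 0.681). A p that misses the threshold does not show that the cell types responded alike.

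Control levels of the 48 genes were compared between the cell types. In control C2C12 cells 4 of the 48 genes were higher than in control pMb, Pttg1 (1.78 ± 0.239, adjusted p = 0.00959), Cenpm (1.66 ± 0.308, adjusted p = 0.0185), Nusap1 (1.39 ± 0.305, adjusted p = 0.0269) and Ccnb2 (1.05 ± 0.245, adjusted p = 0.0315), where 16.2% of all genes were higher. Bub3 alone was lower (−0.71 ± 0.171, adjusted p = 0.0339), where 18.3% of all genes were lower. Both shares of the members lay below those of all genes. For Pttg1, Cenpm, Nusap1, Ccnb2 and Bub3 the 2 controls of one cell type did not overlap those of the other. This was not particular to them. Both C2C12 controls lay above both pMb controls for 11 of the 48 genes and below both for 2. The share of all genes with this pattern was not counted. The median difference of the 48 genes was 0.36, but it rested on the first C2C12 experiment: without that control it was −0.12, with 31 of 48 genes below 0, and without the control of replicate 2 it was 0.75. Without the pMb control of replicate 1 the median was 0.24, and without that of replicate 2 it was 0.55. With a control left out, 1 sample stood in its group, so only the size of the difference is given. Per kb of exon, the highest control levels were those of Cdc20 (58.1 CPM per kb), Ccnb2 (56.6) and Smc4 (48.8) in C2C12 cells and of Cdc20 (51.8), Plk1 (34.3) and Smc4 (31.1) in pMb, and the lowest was Kif18a with 2.07 CPM per kb in C2C12 cells and 1.33 CPM per kb in pMb.

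**Figure D4:**
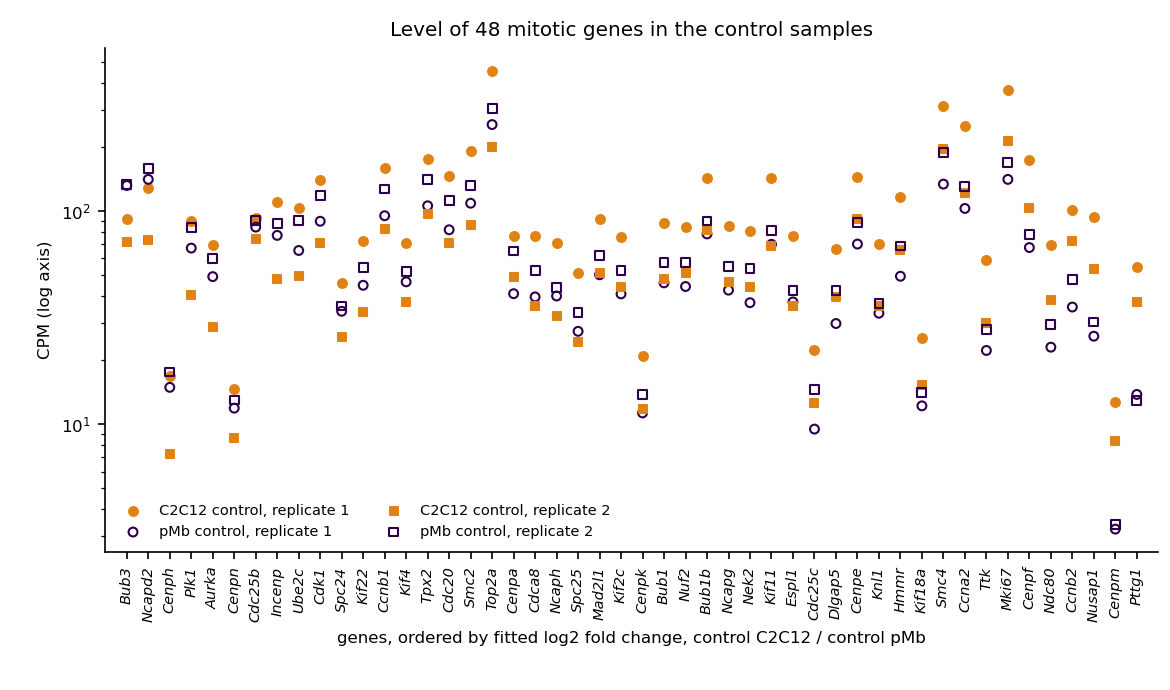
Level of the 48 genes in CPM (log axis) in the 4 control samples, ordered by the fitted difference between C2C12 cells (filled) and pMb (open). For 20 genes both pMb values lie between the 2 C2C12 replicates. Both C2C12 values lie above both pMb values for 11 genes, among them Cenpm and Pttg1 at the far right. They lie below both for 2 genes, among them Bub3 at the far left. The shares of all genes with these patterns were not counted.

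Further mitotic genes outside the 48 were examined in 7 lists of 103 genes, of which 22 fell and 0 rose in C2C12 cells and 10 fell and 0 rose in pMb by edgeR. Of 11 further mitotic kinases and entry regulators, 5 fell in C2C12 cells and 4 in pMb, with medians of −0.24 and −0.41. Aurkb, the kinase of the passenger complex (−0.41 and −0.46), Birc5, its survivin subunit (−0.43 and −0.44), Melk (−0.35 and −0.41) and Pbk (−0.24 and −0.45) passed in both. Of 23 further spindle genes, 8 fell in C2C12 cells and 4 in pMb, among them the minus-end-directed motor Kifc1 (−0.30 and −0.48) and the pole protein Spag5 (−0.34 and −0.43), while Aspm (−0.48, adjusted p = 0.000428) passed in C2C12 cells alone. Of 30 further centromere and kinetochore genes, 3 fell in C2C12 cells, among them the cohesin protectors Sgo2a (−0.35) and Sgo1 (−0.33), and 0 passed in pMb. Of 15 subunits and activators of the anaphase-promoting complex, Fzr1 passed in both (−0.54 and −0.43) and Anapc4 in C2C12 cells (−0.26), and the list medians lay at −0.05 and 0.02. Esco2, which acetylates cohesin, fell in C2C12 cells (−0.48) as the only one of 12 cohesin genes, and of 5 condensin II genes and Ki-67 partners, Ncapg2 (−0.33) and Ncapd3 (−0.31) fell. Of 7 transcription factors of mitotic genes, the activator Foxm1 fell in C2C12 cells (−0.35, adjusted p = 0.00416) and Mybl2, the Myb protein that joins MuvB, in pMb (−0.46, adjusted p = 0.028).

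DNA replication genes, which act in S phase, gave a contrast in C2C12 cells. Of 27 such genes 0 passed in either direction in C2C12 cells or in pMb by edgeR. In C2C12 cells 14 of 27 were below 0 with a median of −0.003, and in pMb 27 of 27 were below 0 with a median of −0.25. Their levels summed to 2080 and 1020 CPM in control C2C12 cells and 2060 and 1070 CPM after Septin9 siRNA, and to 2080 and 2170 CPM against 1880 and 1780 CPM in pMb. The sum of the replication genes was thus nearly level within each C2C12 pair, in which the sum of the mitotic genes was lower. The medians of the 2 pairs differed in sign, whereas 7 of the 27 genes were lower in both pairs. The median log2 ratio was −0.073 in pair 1 (19 of 27 lower) and 0.07 in pair 2 (8 of 27 lower). Both lists were lower in C2C12 replicate 2 than in replicate 1 (26 of 27 replication genes passed, median −1.04). In pMb both lists were lower in both pairs.

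**Figure D5:**
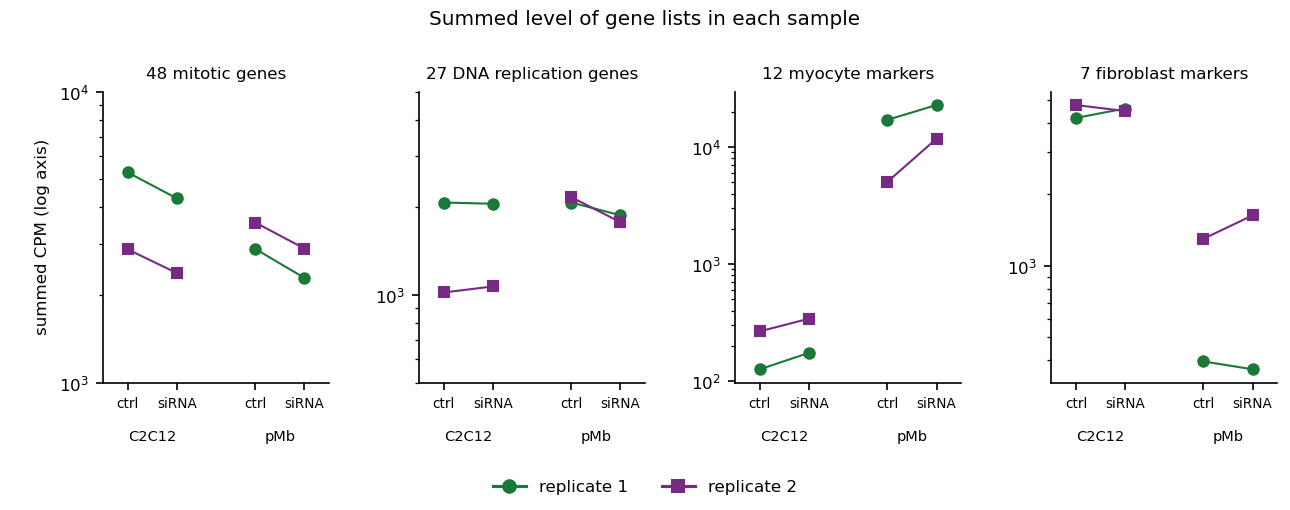
Summed level in CPM (log axis, scaled separately in each panel) of the 48 mitotic genes, 27 DNA replication genes, 12 markers of differentiating myocytes and 7 fibroblast markers in each sample, with lines joining replicate pairs. The mitotic sum runs downward in all 4 pairs, the replication sum is nearly level in C2C12 cells and lower in pMb, and the myocyte sum runs upward in all 4 pairs.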

How the data were processed

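RNA was measured in 8 samples, 2 replicates for each of 4 groups. Paired-end reads had been aligned by the authors with STAR 2.7.2 (GRCm38.p6) and counted by featureCounts 2.0.1, and the raw counts were deposited unscaled. A normalized signal was deposited per cell type as well, ComBat-Seq adjusted counts divided by DESeq2 1.40.1 size factors. Every value of it was a whole multiple of 1 read (100.0% within 0.01 reads), so the batch-corrected counts were recovered and used in an alternative, in which DESeq2 called 820 genes in C2C12 cells and 931 in pMb. A list of 16 broken lines (Dst, Huwe1, Mycbp2, Neb and Syne1) was left out. The paper's text names Gencode, whereas all gene names are RefSeq symbols.

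Each cell type was fitted alone in R 4.3.3 with edgeR 4.0.16: filterByExpr, TMM, quasi-likelihood test, replicate number as a block because the study's methods give 2 independent experiments and remove their batch effect, and Benjamini-Hochberg adjustment over all genes tested. Deviations of samples with the same number from their group means correlated at 0.678 in C2C12 cells and 0.82 in pMb. The interaction was fitted over all 8 samples with the block within cell type, and the controls without a block. Standard errors follow from dividing each fold change by the root of its F statistic. CPM were scaled by TMM over all 8 samples, whereas fold changes and pair ratios (log2 CPM, prior count 2) were scaled within a cell type. The fits were also run on simulated counts with a fixed spread for all genes, which do not show how the fits perform on these data. P-values rest on 2 replicates per group. Exon lengths and overlaps are from GENCODE mouse release M21, and gene positions and promoters from RefSeq, GRCm38.p6. Tables and figures were made in Python 3.11.15 with pandas 2.3.3 and matplotlib 3.10.9.

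The genes, lists and tests were chosen with earlier results of these data known. Genes given by sample are, in each of 8 role groups, the 2 with the highest control level per kb of exon, the 5 with the smallest p in each siRNA comparison, the 3 with the smallest p in the interaction and the 3 with the largest difference between controls. From the other lists at most 4 genes past the threshold were named, apart from genes named for passing in both cell types. The values of 1 gene of these lists are not reported here. Alternatives were scaling by RLE or by library size, a minimum of 10 counts per sample, no filter, no replicate block, all samples in one fit, DESeq2 1.42.0, the batch-corrected counts, the study's fold threshold (1.5-fold), and each replicate left out.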

Additional observations from a re-analysis of the deposited data

Results flagged for a closer look

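Pttg1, which encodes securin, was lower in Septin9-deficient samples in both C2C12 pairs (log2 ratios −0.20 and −0.33) and higher in both pMb pairs (0.32 and 0.16). The change in pMb minus that in C2C12 cells was 0.495 on the log2 scale (SE 0.142). By the interaction test of edgeR the unadjusted p was 0.00594 and the adjusted p 0.402 over 17918 genes, so the difference did not pass. Over the 10 alternatives the difference ran from 0.41 to 0.61. In the alternatives that kept both replicates the difference did not pass, and the smallest adjusted p by edgeR was 0.141, with no filter. Where a replicate was left out, only the size of the difference is given. Pttg1 was also the gene of the 48 with the largest difference between the controls.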

How the results depend on the processing

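The median change of the 48 genes kept its direction under every alternative, from −0.30 to −0.26 in C2C12 cells and from −0.35 (library size alone) to −0.31 in pMb, whereas the number of genes called lower did not hold. The lower calls over all genes moved too and are given in brackets for C2C12 cells and after the member counts for pMb. In C2C12 cells 31 members were called (651 genes). DESeq2 with the replicate block called 6 (199), the fit of all 8 samples 1 (76) and the fold threshold 1 (117). With no replicate block 0 were called (0), with 0 members and 372 genes at an unadjusted p under 0.05. In pMb 7 were called, and 21 by DESeq2 on the batch-corrected counts, 16 in the fit of all 8 samples, 13 with no filter, 1 with RLE size factors, library size alone, DESeq2 with the replicate block or the fold threshold, 0 with no replicate block (1 member and 378 genes unadjusted) and 22 without either replicate. Over all genes, the main pMb fit called 178 lower. DESeq2 on the batch-corrected counts called 326, the fit of all 8 samples 207 and no filter 284. RLE size factors gave 48, library size alone 59, DESeq2 with the replicate block 41, the fold threshold 51 and no replicate block 0. The calls over all genes thus rose and fell with those of the members. The counts without a replicate rest on 1 sample per group and are not compared. The cause of these shifts was not tested, apart from the fold threshold. With library size alone 51.1% of all genes called in C2C12 cells were higher, against 39.0% with TMM. No scaling moved the median of all genes by over 0.1. In C2C12 cells, Bub3 was at −0.125 without replicate 1 and 0.032 without replicate 2, and Cenph at −0.046 and 0.033, and at 0.012 with library size alone. The interaction gave 0 members in every alternative that kept both replicates. Between the controls 7 members were higher by DESeq2 and 8 with no filter, from 1 to 3 with a control left out, and 0 were lower with a replicate block across the cell types or with a control left out. Between the pMb replicates DESeq2 called 9 of 48 members, where 2005 of 17117 genes were called.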
